A study of Mus musculus with 2 samples.

Results

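The genes described here are 43 genes of cell division, chosen by name: 14 genes of DNA replication, 18 genes of mitosis, 9 regulators of entry into S phase and 2 inhibitors of cyclin-dependent kinases. Of these, 42 had at least 1 probe of that name on the arrays, 58 probes in all, and 41 of them were above the filter on dim signal and were tested, among 19875 genes. Foxm1b was not found as a gene name on the array. The 1 probe of Ccne2, cyclin E2, was not well above background, so Ccne2 was not tested.

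RNA came from ureters of NMRI mouse embryos dissected at E14.5, the embryonic day on which the mesenchyme around the ureter starts to form smooth muscle. The mutant group, Gata6cKO, carried the genotype Tbx18(cre/+);Gata6(fl/fl), with cre recombinase made from 1 copy of Tbx18, a gene of the ureteric mesenchyme, and both copies of the transcription factor gene Gata6 flanked by loxP sites. The controls, Gata6(fl/?), carried at least 1 such Gata6 copy and, per the labels, no cre, so the loss of Gata6, the presence of cre and the changed Tbx18 copy cannot be told apart. Each of 2 two-colour arrays held 1 RNA labelled Gata6cKO and 1 control RNA, from males on the first array (Gata6cKO in Cy5) and from females on the second (Gata6cKO in Cy3), so sex and dye orientation cannot be told apart either. Values given below for males or females are those of the male or the female array. Whether an RNA came from 1 embryo or from a pool is not given in the labels, so how far p-values cover the spread between embryos is not known. They measure only the spread between these 2 arrays, which joins embryo, sex, dye orientation and technical error.

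Cells copy their DNA in S phase and divide it in mitosis, and the genes for these steps are transcribed mainly while a cell is cycling. Cyclin D and cyclin E kinases release E2F factors from the RB protein, which lets genes of DNA replication be transcribed, and the MYBL2-FOXM1 complexes act later on genes of mitosis. In resting cells the DREAM complex holds both kinds of gene down. In the ureter at this stage both the mesenchyme and the epithelium still divide, and cells leave the cycle as they become smooth muscle. In RNA of a whole tissue, fewer cycling cells and less of such a transcript per cell cannot be told apart. The comparison asks whether the levels of these genes differed between Gata6cKO and control ureters, and how large a difference the arrays would have left unseen.

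Promoter sequences are shown first because the replication and mitosis genes differ in the short motifs through which E2F and DREAM complexes are known to act. They were taken from RefSeq (GRCm38.p6), from 250 bases before to 50 after each gene start, and 33 of the 43 genes had an entry. The motifs searched, on both strands, were TTTGAA (the CHR element), TTTCGCGC, TTTGGCGC or TTTCCCGC (E2F elements) and CCAAT. The CHR element was found in 10 of 14 mitosis promoters (71.4%), in 2 of 13 replication promoters (15.4%) and in 17.9% of all 32851 promoters. An E2F element was found in 6 of 13 replication promoters (46.2%), in 1 of 14 mitosis promoters (7.14%) and in 1.84% of all promoters. The CCAAT box was found in 13 of 14 mitosis promoters (92.9%), 10 of 13 replication promoters (76.9%) and 37.4% of all. A match describes the letters only.

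The 4 promoters with at least 2 matches of their list's motif within 120 bases of upstream sequence are printed 5′ to 3′ on the strand of the gene, with matches in capitals. They are Mcm5 (chr8:75109356-75109475, plus strand) and Mcm6 (chr1:128359706-128359825, minus strand) with E2F elements, and Cdk1 (chr10:69352913-69353032, minus strand) and Mki67 (chr7:135716448-135716567, minus strand) with CHR elements. In Mcm5 the first 2 matches, and in Mcm6 the first 2 of 3, lie on opposite strands and overlap in 1 run of capitals.
Mcm5: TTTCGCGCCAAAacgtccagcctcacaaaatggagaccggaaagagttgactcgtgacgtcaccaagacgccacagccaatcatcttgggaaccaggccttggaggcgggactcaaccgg
Mcm6: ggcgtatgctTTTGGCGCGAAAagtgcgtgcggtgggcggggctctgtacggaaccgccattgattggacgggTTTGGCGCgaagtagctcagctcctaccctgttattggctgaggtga
Cdk1: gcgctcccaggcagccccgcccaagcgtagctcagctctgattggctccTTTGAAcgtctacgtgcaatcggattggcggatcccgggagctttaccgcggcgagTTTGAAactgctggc
Mki67: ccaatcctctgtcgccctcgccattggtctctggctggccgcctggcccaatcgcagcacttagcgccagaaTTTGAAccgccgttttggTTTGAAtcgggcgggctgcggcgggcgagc

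No gene of the set passed the test. Of the 41 tested genes, 0 had a limma adjusted p under 0.05 (Benjamini-Hochberg over 19875 genes). Of all genes, 911 did (4.58%), 441 of them higher (2.22%) and 470 lower (2.36%) in Gata6cKO RNA. At that share few calls would fall among 41 genes, so a count of 0 does not set them apart. The smallest adjusted p in the set was 0.331. At an unadjusted p under 0.05 there were 2 genes, Cdkn1c and Ccnd2, both lower, against 11.4% of all genes. Every log2 ratio of Gata6cKO over control lay between -0.30 and 0.24, with a median of 0.04, and the median over all genes was 0.00.

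The 95% intervals bound the changes that could have gone unseen. Each is the moderated interval of 1 gene over 2 arrays, not adjusted for the number of genes, and it reached 0.24 to 0.31 log2 to either side of the mean (moderated SE 0.11 to 0.14). All 41 genes had an interval wholly inside a 1.5-fold change in either direction (92.4% of all genes did, and 98.5% inside 2-fold). A narrower bound is a ratio of 5:4 either way, or 0.32 on the log2 scale. Inside it lay 20 of 41 intervals (52.3% of all genes). The interval that reached farthest was that of Ccnd2, which allowed a fall of up to 1.49-fold. With 4 RNAs, the fit holds 1 residual degree of freedom beside 12.2 prior ones, so the width of an interval comes mainly from the spread of all genes between the arrays (prior SD 0.162). The cell cycle genes differed more between the arrays than genes in general: the median absolute difference was 0.22 in the set and 0.16 over all genes. When the prior spread was taken from the set alone, an alternative added after the data were seen, 40 genes stayed inside 1.5-fold, all but Ccnd2, and 10 inside 0.32 log2.

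**Figure D1:**
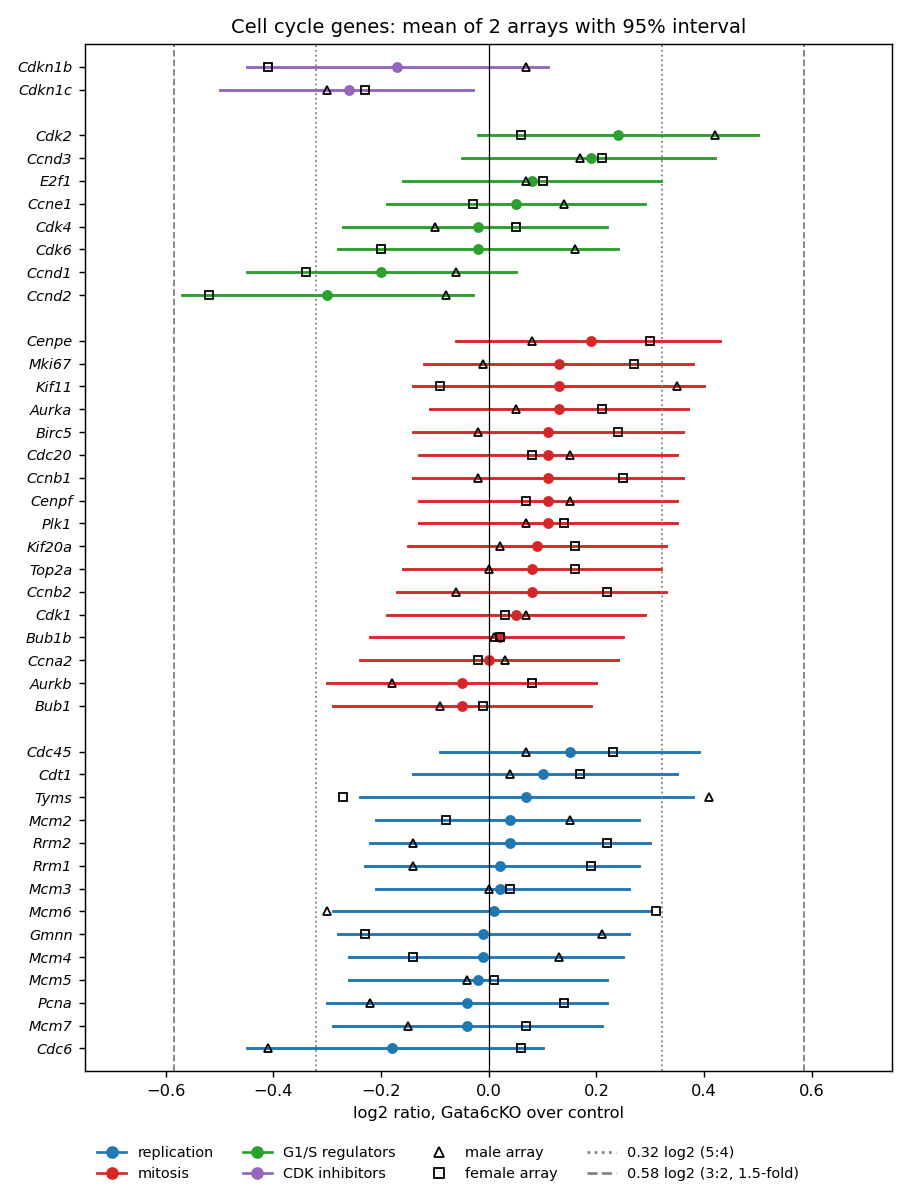
Log2 ratio of Gata6cKO over control (x axis) for each of 41 genes, grouped by role. Dots are the mean of both arrays, bars the 95% interval, triangles the male array and squares the female array. Dotted and dashed lines mark ratios of 5:4 and 3:2 either way. Every bar ends inside the dashed 1.5-fold lines, and Ccnd2 comes nearest to them at -0.57.

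For genes in general, the smallest log2 ratio that passed the test was 0.42 in size, a 1.33-fold change, and the largest that did not pass was 0.83. Every spot of the probes of the 41 genes was well above background in all 4 RNAs, but some probes were dim. Cdk6 read 143 to 191 and Aurkb 153 to 184, on a scale that includes an offset of 50. An offset draws the ratio of a dim probe toward 0, so their bounds may be too narrow. With Agilent's processed signals their intervals reached -0.33 (Cdk6) and -0.35 (Aurkb). The median SD between the spots of a probe was 0.0239 on the male array and 0.0317 on the female array. The largest was 0.169, for Cdk6 on the male array. The bounds apply to RNA of the whole ureter. A larger change confined to some of its cells would appear here as a smaller one.

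**Figure D2:**
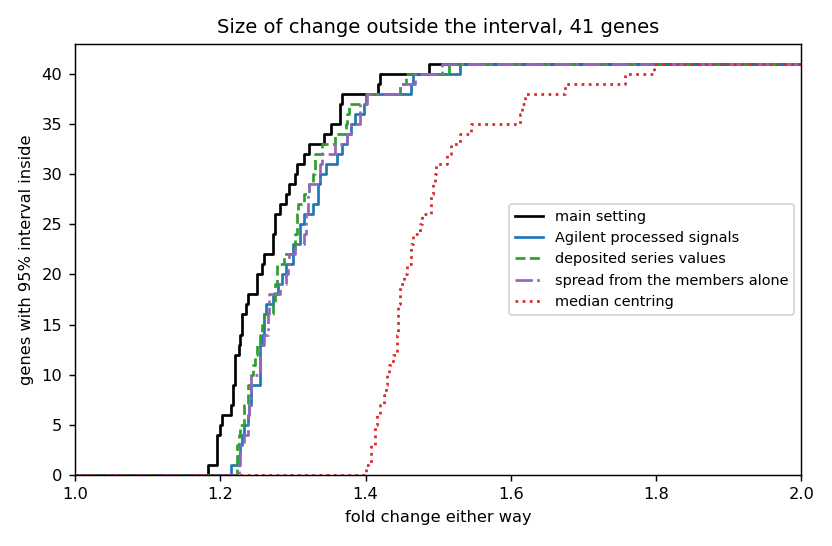
Number of the 41 genes (y axis) whose 95% interval lies wholly inside the fold change on the x axis, in either direction. Lines are the main setting and 4 others. The main setting holds 20 genes at 5:4 and 41 at 1.5-fold, whereas median centring in place of loess holds 0 and 31.

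Among the replication genes, 0 of 14 passed limma's test, 0 at an unadjusted p under 0.05, and the smallest adjusted p was 0.925. The shares over all genes were 4.58% and 11.4%, so a count of 0 in so short a list does not set it apart. Their log2 ratios ran from -0.18 to 0.15 with a median of 0.01, 8 above 0 and 6 below. Of all genes, 49.2% were above 0. The male array gave a median of -0.02, the female array one of 0.06. Only 3 of the 14 lay above 0 on both arrays, none lay below 0 on both, and 11 had opposite signs, where 51.2% of all genes had opposite signs. The largest fall that an interval allowed was 1.37-fold (Cdc6) and the largest rise 1.31-fold (Cdc45). The intervals of 10 genes lay inside 0.32 log2, and the other 4 were those of Cdc6, Cdc45, Cdt1 and Tyms.

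Cdc6 loads the replicative helicase onto origins of replication. Its probe (chromosome 11, 98782986 to 98783045, mm9) gave normalised intensities of 2444 in control and 1844 in Gata6cKO on the male array, and of 1952 and 2029 on the female array. Normalised intensity is the background-corrected signal after loess within each array and a quantile step between arrays. That step gave both arrays the same distribution of average intensity. The RNAs of 1 array are the pair to compare. Statements across arrays, such as whether the groups overlapped, rest on the quantile step. Gata6cKO was the lower of the male pair and the higher of the female pair, and the groups overlapped. The mean log2 ratio of -0.18 ± 0.13 (moderated SE, n = 2 arrays; limma adjusted p = 0.925) joined -0.41 for males and 0.06 for females. A second Cdc6 probe gave -0.13, and -0.11 and -0.15 on the arrays.

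Cdc45 joins the MCM ring to make the active helicase. Its probe (chromosome 16, 18807449 to 18807508) gave 412 in control and 433 in Gata6cKO on the male array, and 470 and 553 on the female array. Gata6cKO was higher on both arrays and the groups overlapped. The mean ratio was 0.15 ± 0.11 (n = 2 arrays; limma adjusted p = 0.941). Its interval ran from -0.09 to 0.39. Cdt1, the partner of Cdc6 in loading the helicase (chromosome 8, 125096893 to 125096952), read 14114 and 14468 on the male array and 15123 and 17054 on the female array, again in the order control and Gata6cKO. Its mean ratio came to 0.10 ± 0.11 (n = 2 arrays; limma adjusted p = 1.0). Gmnn, geminin, which blocks Cdt1, was at -0.01, from 0.21 in males and -0.23 in females, and a second probe gave -0.05 and -0.09.

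The MCM genes encode the 6 subunits of the helicase ring, and their mean log2 ratios lay close together: 0.04 for Mcm2, 0.02 for Mcm3, -0.01 for Mcm4, -0.02 for Mcm5, 0.01 for Mcm6 and -0.04 for Mcm7. Their intervals allowed a fall of at most 1.22-fold and a rise of at most 1.24-fold. The single arrays were farther apart. Mcm6, whose promoter with 3 E2F elements is printed above, read 60725 in control and 49461 in Gata6cKO on the male array, and 51856 and 64276 on the female array, so its ratio was -0.30 and then 0.31. Mcm3 and Mcm5 stayed within 0.04 of 0 on each array.

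Pcna, the sliding clamp of DNA polymerase, had a log2 ratio of -0.04 (-0.22 male, 0.14 female). Rrm1 and Rrm2, the subunits of ribonucleotide reductase, which makes deoxynucleotides, had 0.02 and 0.04, and both were at -0.14 on the male array and near 0.2 on the female array (0.19 and 0.22). Tyms, thymidylate synthase (chromosome 5, 30385578 to 30385637), had the widest interval of all 41 genes, from -0.24 to 0.38. It read 590 in control and 782 in Gata6cKO on the male array but 796 and 660 on the female array. The 2 arrays thus pointed in opposite directions, at 0.41 and -0.27, and the mean was 0.07 ± 0.14 (n = 2 arrays; limma adjusted p = 1.0).

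**Figure D3:**
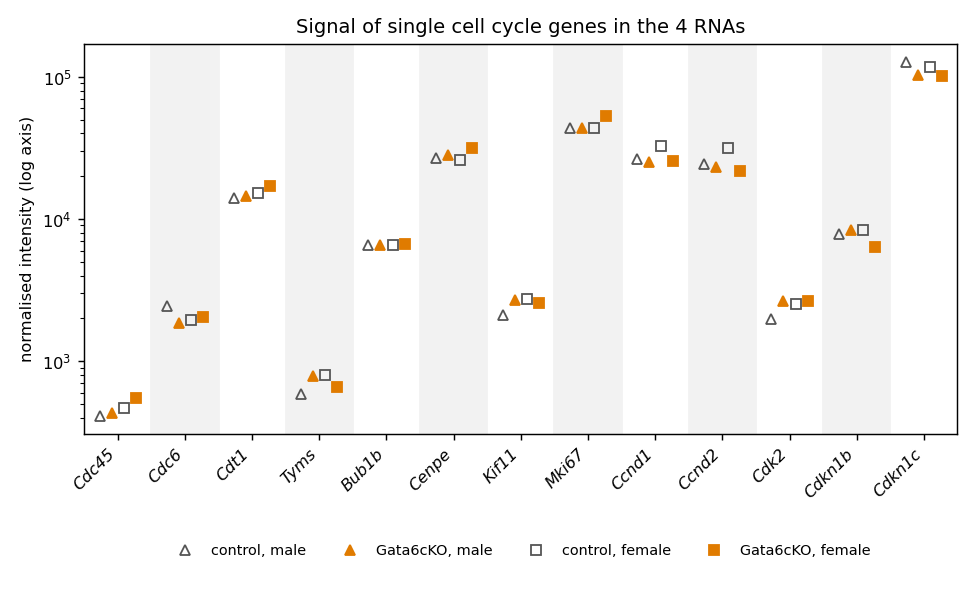
Normalised intensity (log axis) of 13 single genes in the 4 RNAs: open symbols control, filled symbols Gata6cKO, triangles male, squares female. Levels of different genes depend on the probe and are not to be set against each other. Cdkn1c is lower in Gata6cKO on both arrays (103649 and 101096 against 127871 and 118218), whereas Tyms and Kif11 are higher on the male array and lower on the female array.

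Of the 17 mitosis genes tested, 0 passed limma's test, 0 at an unadjusted p under 0.05, and the smallest adjusted p was 0.746. Over all genes the shares were 4.58% and 11.4%, so here too a count of 0 does not set the list apart. Their log2 ratios ran from -0.05 to 0.19 with a median of 0.11, and 15 of 17 were above 0 (Ccna2 by an amount that rounds to 0.00), where 49.2% of all genes were. In males the median was 0.02, with 10 of 17 above 0, and in females 0.14, with 14 of 17. Above 0 on both arrays were 8 genes: Cdk1, Cdc20, Aurka, Bub1b, Plk1, Kif20a, Cenpe and Cenpf (23.4% of all genes were). Every interval of the list held 0. The intervals allowed a fall of at most 1.23-fold (Aurkb) and a rise of at most 1.35-fold (Cenpe), and 6 lay inside 0.32 log2: those of Top2a, Ccna2, Cdk1, Aurkb, Bub1 and Bub1b.

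Cenpe, a kinetochore motor, had the largest ratio of this list. Its probe (chromosome 3, 134936387 to 134936446) gave 26777 in control and 28339 in Gata6cKO on the male array, and 25823 and 31688 on the female array. Both Gata6cKO values were above both control values, by 0.19 ± 0.11 (n = 2 arrays; limma adjusted p = 0.746). Mki67, which coats mitotic chromosomes and is the source of the proliferation marker Ki-67 (chromosome 7, 142881591 to 142881650), read 43853 and 43649 on the male array and 43730 and 52718 on the female array. The male pair was level and the female Gata6cKO RNA was the high one, which gave 0.13 ± 0.12 (limma adjusted p = 1.0), and a second probe gave 0.03, from 0.07 in males and -0.01 in females.

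Kif11, the kinesin that pushes spindle poles apart (chromosome 19, 37495755 to 37495814), changed sign between the arrays. It read 2114 in control and 2698 in Gata6cKO for males, and 2733 and 2565 for females, a mean of 0.13 ± 0.13 (n = 2 arrays; limma adjusted p = 1.0). Bub1b, of the spindle checkpoint (chromosome 2, 118466830 to 118466889), had the narrowest interval of the 41 genes, from -0.22 to 0.25. Its 4 values, 6541 and 6586 for males and 6538 and 6650 for females, lay closest together of the named genes, with a ratio of 0.02 ± 0.11 (limma adjusted p = 1.0).

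The engine of mitosis, Cdk1 with its cyclins, had mean ratios of 0.00 to 0.11, with an interval reaching up to 0.36 for Ccnb1. Cdk1 had a log2 ratio of 0.05 (its 3 probes gave -0.05 to 0.05), cyclin A2 (Ccna2) 0.00, cyclin B1 (Ccnb1) 0.11 (0.11 to 0.19 at its 3 probes) and cyclin B2 (Ccnb2) 0.08. Among the mitotic kinases, Aurka and Plk1, which act on centrosomes and spindles, had 0.13 and 0.11, and Aurkb, of the chromosomal passenger complex, had -0.05. Birc5, another member of that complex, had 0.11, from -0.02 in males and 0.24 in females. Cdc20, which activates the anaphase-promoting complex, and the kinetochore protein Cenpf had 0.11 each. Bub1, a checkpoint kinase, had -0.05, Top2a, which untangles chromosomes, 0.08, and Kif20a, a kinesin of cytokinesis, 0.09. Each of these intervals held 0.

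Set side by side, the median of the mitosis genes was 0.09 above that of the replication genes on the log2 scale. The difference was 0.04 in males and 0.08 in females. It had the same sign on each array. Genes are not replicates of a genotype and the medians were not tested, so nothing beyond these values can be said about it. A further 40 replication genes and 43 mitosis genes were measured. None of these passed limma's test, and 1 of them, Espl1 (separase, chosen after its values were seen), had an unadjusted p under 0.05. The shares over all genes were 4.58% and 11.4%. Their medians were 0.01 and 0.07, which differ by 0.05 (0.04 male, 0.08 female). Of these genes, 22 of 40 replication and 36 of 43 mitosis genes had a ratio above 0, against 49.2% of all genes. All 40 and all 43 intervals lay inside 1.5-fold, as did 92.4% of those of all genes. Foxm1, the transcription factor of mitosis genes, was among the 43 mitosis genes with 0.05 (0.06 male, 0.05 female).

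**Figure D4:**
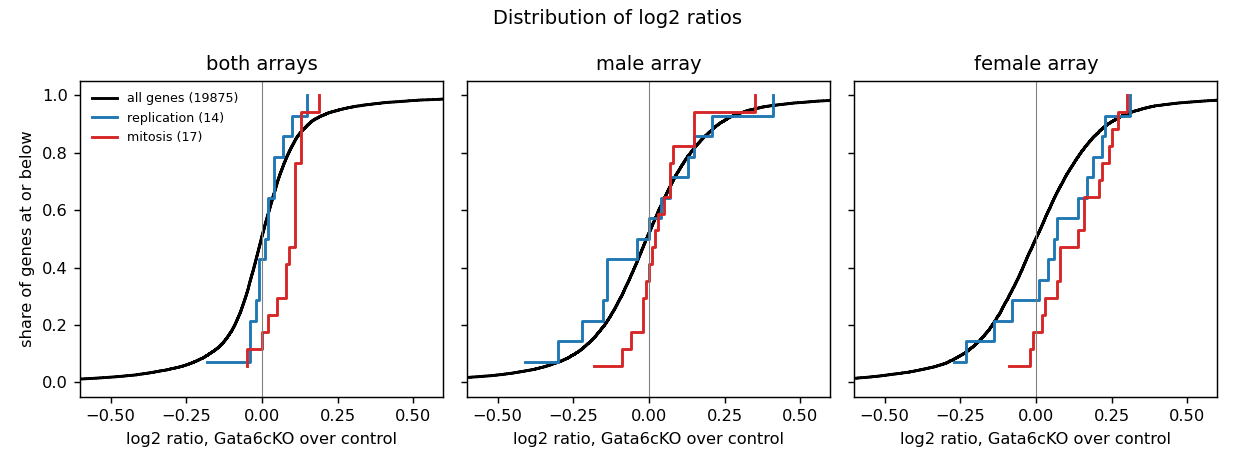
Share of genes (y axis) at or below each log2 ratio (x axis), for both arrays together and for each array, over all 19875 genes, 14 replication genes and 17 mitosis genes. On both arrays together the mitosis line lies to the right (median 0.11) of the replication line (0.01) and of all genes (0.00), and the gap is narrower on the male array.

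The regulators of S phase entry held the largest ratios in either direction, and 0 of 8 passed limma's test (smallest adjusted p 0.339), where 4.58% of all genes did. The D cyclins, which answer to growth signals, had ratios of different sign. Ccnd2 (chromosome 6, 127098696 to 127098755) read 24538 in control and 23286 in Gata6cKO on the male array, and 31365 and 21814 on the female array. Both Gata6cKO values were below both controls, and the female pair differed far more. The mean was -0.30 ± 0.13 (n = 2 arrays; limma adjusted p = 0.339), from -0.08 and -0.52, with an interval from -0.57 to -0.03.

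Ccnd1 (chromosome 7, 152116202 to 152116261) read 26380 and 25336 on the male array and 32459 and 25712 on the female array. It was lower on both, again mostly on the female array, at -0.20 ± 0.12 (n = 2 arrays, limma adjusted p = 0.722). Ccnd3 was above 0 on both arrays (0.17 and 0.21), with a mean of 0.19. Cdk2, the kinase partner of cyclin E (chromosome 10, 128135658 to 128135717), read 1979 and 2657 on the male array and 2541 and 2649 on the female array. Both Gata6cKO values were above both controls, with the larger gap on the male array, at 0.24 ± 0.12 (limma adjusted p = 0.528). The other members, with intervals inside 0.32 log2, were Cdk4 (-0.02) and Cdk6 (-0.02), the kinases of the D cyclins, cyclin E1 (Ccne1, 0.05, and 0.18 at a second probe) and E2f1 (0.08).

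Both inhibitors of cyclin-dependent kinases had a ratio below 0, and neither passed (4.58% of all genes did). Cdkn1c, an imprinted gene for an inhibitor found in cells that leave the cycle (chromosome 7, 150644753 to 150644812), read 127871 in control and 103649 in Gata6cKO on the male array, and 118218 and 101096 on the female array. Both Gata6cKO values were below both controls, by a like amount on each array (-0.30 and -0.23). The mean was -0.26 ± 0.11 (n = 2 arrays; limma adjusted p = 0.331), with an interval from -0.50 to -0.03, which allows a fall of up to 1.42-fold. Cdkn1b (chromosome 6, 134875424 to 134875483) read 7891 and 8308 for males and 8393 and 6308 for females, so that the sign turned between arrays. Its mean was -0.17 ± 0.13 (n = 2 arrays; limma adjusted p = 0.968), and a second probe gave -0.01, level on both arrays (0.00 and -0.01).

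**Figure D5:**
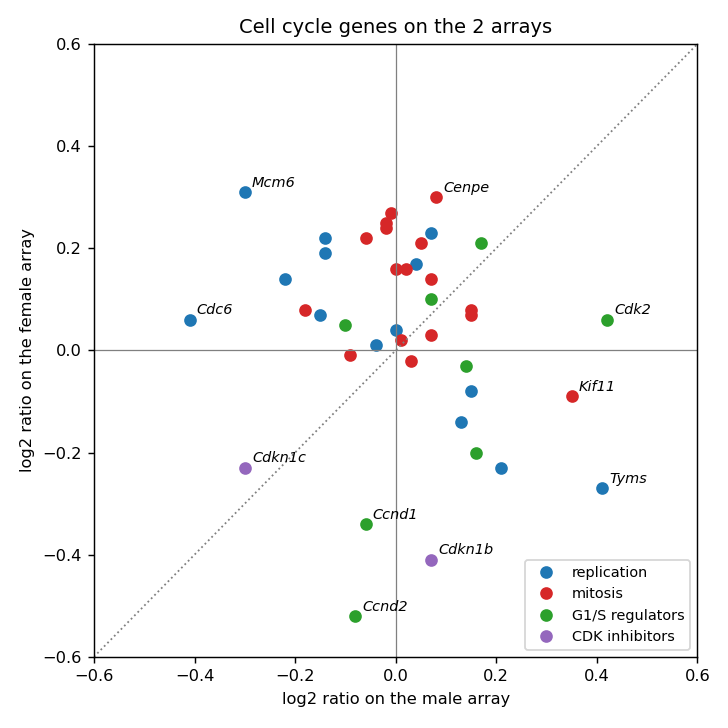
Log2 ratio on the male array (x axis) against the female array (y axis) for the 41 genes, coloured by role, with a dotted line of equal ratios. Points in the upper left and lower right have opposite signs, as for Mcm6 (-0.30 and 0.31) and Tyms (0.41 and -0.27), whereas Cdkn1c lies below 0 on both arrays.

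Over the whole set, 14 of 41 genes had a ratio above 0 on both arrays, 4 had one below 0 on both and 23 had opposite signs. Of all 19875 genes, 4646 were above 0 on both (23.4%), 5054 below 0 on both and 10175 had opposite signs (51.2%). In 14 of the 23 genes of the set, each sign was beyond the 95% interval of that array's spots, as in 24.0% of all genes. For 11 genes more than 1 probe was kept, and the probes of 1 gene spanned 0.01 to 0.16 in the mean of both arrays. On single arrays they were farther apart, by 0.02 to 0.46 in males and 0.05 to 0.47 in females. The widest were Ccnb1, from -0.02 to 0.44 in males, and Ccne1, from -0.03 to 0.44 in females.

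Among 32 other cyclins, RB and E2F genes and inhibitors outside the set, 1 rose, 1 fell and 30 did not pass. The shares over all genes were 2.22% higher and 2.36% lower. Cdkn1a, an inhibitor that answers to p53, read 670 in control and 1073 in Gata6cKO on the male array, and 696 and 1044 on the female array. Both Gata6cKO values were above both controls, and it rose by 0.63 ± 0.11 (1.55-fold, n = 2 arrays; limma adjusted p = 0.00359). Cdkn2b, an inhibitor of the cyclin D kinases, read 496 and 262 on the male array and 330 and 229 on the female array. It fell by 0.72 ± 0.12 on the log2 scale (1.65-fold, n = 2 arrays; limma adjusted p = 0.00281). Cdkn1a lost its call with median centring (adjusted p = 0.507) and with no replicate block (0.0757), and Cdkn2b with these (0.256 and 0.293), with separate channels (0.109) and without the filter (0.054), all from limma and with the same sign. The median of the list was 0.02, and 29 of 32 intervals lay inside 1.5-fold (92.4% of all genes). Its neighbour gene Cdkn2a was not well above background.

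Markers of several other cell types differed between the groups. Among all genes, 2.22% rose and 2.36% fell by the same test. Urothelial markers fell in 9 of 16 genes (median -0.60), and their summed intensity was 278662 and 262744 in the controls and 212587 and 193800 in Gata6cKO. Markers of neurons and glia rose in 11 of 14 genes (median 0.93; sums 97151 and 87905 in control, 108010 and 116345 in Gata6cKO). Of 12 markers of ureteric mesenchyme and smooth muscle, 4 fell, all of them smooth muscle genes: Cnn1 (-1.51), Myocd (-1.33), Actg2 (-1.09) and Myh11 (-0.81). Not passed were the smooth muscle genes Acta2 (-0.29) and Tagln (-0.15). Neither did Tbx18 (-0.20), Tcf21 (-0.15), Pdgfra (-0.23), Ptch1 (-0.24), Col1a1 (-0.31) or Bmp4 (0.28) pass. The median of this list was -0.27, with sums of 233867 and 242949 in control, and 207228 and 211059 in Gata6cKO. Erythroid markers fell in 3 of 8 (sums 37885 and 44491, against 39280 and 33033). Of kidney genes 4 rose and 1 fell among 9 (sums 51419 and 56798, against 72235 and 56985), and of skeletal muscle genes 4 of 7 rose (sums 4241 and 2831, against 7119 and 4306). In endothelium 1 of 8 fell, and in macrophages 0 of 8 passed. Rhag, Nphs1, Myf5, Pax7 and Ckm were not well above background. Their part in the levels of the cell cycle genes was not tested.

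The single Gata6 probe read higher, not lower, in both RNAs labelled Gata6cKO, at 0.65 ± 0.12 (n = 2 arrays; limma adjusted p = 0.00573), and 0.85 and 0.46 on the single arrays. Its adjusted p was 0.62 with median centring, 0.0699 with no filter and 0.145 with no replicate block. Whether it lies in the floxed stretch was not settled, so it does not check the labels, on which every direction given here rests. The median spot signal was 224 to 442 over local backgrounds of 23 to 85 in the 4 channels, and 67.2% to 68.5% of spots were well above background.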

How the data were processed

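Total RNA (150 ng per sample, per the labels' protocols) was labelled with Cy3 or Cy5 and hybridised in pairs to 2 arrays. The deposited scanner files give the raw mean intensity of each spot and its local background intensity per dye, and the authors' processed intensity and log10 ratio from Agilent Feature Extraction 10.7.3.1, per the submitters' processing notes. The deposited series values are a score, a signed linear fold per probe. As log2 this score correlated with the processed ratios at a Pearson r of 0.986 and 0.98. That was across the kept probes that stood for the 19875 tested genes, without the dim probes. How the authors summarised spots is not given in the sources used here.

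The analysis used limma 3.58.1 and statmod 1.5.0 in R 4.3.3. Raw intensities were background-corrected by normexp (offset 50), then loess was applied to the ratios of each array, giving no weight to controls and outliers. After averaging of spots, 26200 of 39429 probes had 3 or more of 4 spots well above background in 1 genotype on both arrays, and the brightest of these stood for a gene. No spot was saturated. For the printed intensities and the separate-channel settings, average intensities were also quantile-normalised between the 2 arrays. This step leaves the ratios within an array unchanged. Ratios were turned to Gata6cKO over control and fitted with lmFit and eBayes, with Benjamini-Hochberg adjustment over 19875 genes, and 95% intervals used the moderated SE. On simulated data the fit recovered 61% of changes of 0.5 log2 and 100% of changes of 1 log2, with 16 false calls. The simulated spread was drawn from the fit's own prior, with no dye or sex effect. It therefore checks the code and not the intervals of the real arrays. Each array holds 1 RNA of each genotype, so the pairing is built into the ratio. The number of arrays limits the precision.

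The 43 genes and the other lists were chosen with earlier results of these data known. Values per RNA are given for the 3 members of each list with the largest ratio and for the narrowest and widest interval. Those of Mcm6 were added after its values were seen. Outside the set, up to 4 genes per list that passed were named by smallest p, and Foxm1, Gata6 and Cdkn2a were named for their role. The genes of the mesenchyme and smooth muscle list were named after their values were seen. Probe coordinates are those of the files (mm9), and 28328 probes were matched by accession to RefSeq symbols (GRCm38.p6). Alternatives were Agilent's processed intensity, median centring, no or a stricter filter, averaging the probes of a gene, the deposited values, separate channels with and without a replicate block, an intensity trend and leaving out each array. The setting with no replicate block also held a dye term, which the setting with the block did not.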

Additional observations from a re-analysis of the deposited data

Results flagged for a closer look

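Of the 41 genes, 14 had ratios of opposite sign on the male and the female array, each beyond the 95% interval of that array's spots. Spots share 1 hybridisation, so that interval covers spot error only. Replication genes were 9 of the 14: Tyms (0.41 male, -0.27 female), Mcm6 (-0.30 male, 0.31 female), Gmnn (0.21 male, -0.23 female), Pcna (-0.22 male, 0.14 female), Rrm2 (-0.14 male, 0.22 female), Rrm1 (-0.14 male, 0.19 female), Mcm4 (0.13 male, -0.14 female), Mcm2 (0.15 male, -0.08 female) and Mcm7 (-0.15 male, 0.07 female). The mitosis genes were Kif11 (0.35 male, -0.09 female), Ccnb2 (-0.06 male, 0.22 female), Ccnb1 (-0.02 male, 0.25 female) and Aurkb (-0.18 male, 0.08 female), and the last was the inhibitor Cdkn1b (0.07 male, -0.41 female). Of the 9 replication genes, Mcm6, Pcna, Rrm1, Rrm2 and Mcm7 were lower on the male and higher on the female array, and Tyms, Gmnn, Mcm4 and Mcm2 the reverse. With 1 array per sex the difference between arrays was not tested, and sex and dye orientation cannot be told apart. The same pattern was found in 24.0% of all genes, and opposite signs alone in 51.2%. These are values of 1 probe per gene. The other probes of Ccnb1 had the reverse signs (0.44 and 0.41 male, -0.07 and -0.04 female), the second Gmnn probe was below 0 on both arrays (-0.05 and -0.09), and the second Cdkn1b probe was at 0.00 and -0.01. No other of the 14 had a second kept probe.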

How the results depend on the processing

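No gene of the set passed in any of the 10 settings with a test (main setting included), with a smallest adjusted p of 0.255 to 1.0 and 0 to 2 genes at an unadjusted p under 0.05. Of all genes, 0.176% to 7.47% passed, depending on the setting. Over these settings the median was -0.04 to 0.02 for replication genes and 0.05 to 0.11 for mitosis genes, and their difference was 0.08 to 0.10. The number of intervals inside 0.32 log2, 20 in the main setting, was 9 with Agilent's processed signals, 13 with the deposited values, 10 with the spread of the set alone (chosen after seeing the data) and 0 with median centring. The lower bound of Ccnd2 passed 1.5-fold (0.585 log2) with processed signals (-0.61), no filter (-0.60), the deposited values (-0.60), separate channels (-0.61) and the spread of the set (-0.59), and with median centring 10 genes passed it, up to 1.80-fold. Median centring also moved the median over all genes to -0.03, that of the set to -0.01, and Bub1b to -0.03. Bub1b was 1 of 8 genes of the set whose ratio changed sign with median centring. In any setting the sign changed for 10 genes, whose main ratios were at most 0.05 in size. The counts of genes above and below 0 given earlier therefore hold for the main setting.

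Leaving out 1 array gives values without a test: the G1/S median was 0.10 without replicate 2 and 0.01 without replicate 1, and mitosis minus replication 0.04 and 0.08. Separate channels with no replicate block, and with a dye term added, called 0 genes of the set, with a smallest limma adjusted p of 0.451. All-gene calls ranged from 35 with no replicate block and 190 with median centring to 1484 with the deposited values, against 911; they were 486 with no filter and 569 with separate channels, and the cause was not tested.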
